A study of Mus musculus with 11 samples.

Results

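Clone 22 is 1 of 11 clonal mouse embryonic stem cell lines, and its library held more RNA of chromosome 8 genes than the libraries of the other 10 clones. The genes described are those of chromosome 8 from Arglu1 to Itgb1, in annotation order, whose level averaged at least 5 CPM (counts scaled to equal library size) over the 11 libraries. They number 545 of the 22369 genes of the count table. The stretch holds 985 genes of the table, and the other 440 had means under 5 CPM, 101 of them with no count in any library. The ends of the stretch and the call of a shift of about 1.4-fold were read from these same libraries. All values of the 545 genes are therefore descriptions of 1 library beside the spread of the other 10, and no test on them is valid, since they were chosen by the same contrast.

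All 11 lines were made from EBRTcH3 cells, mouse embryonic stem cells in which the ROSA26 promoter drives the tetracycline-controlled transactivator. Reporters driven by the mouse PGK promoter, each with a barcode, were inserted by piggyBac at several places in the genome of each line, cells with high eGFP signal were sorted, and single colonies were picked and grown. Clone 22 and the other 10 clones (clones 16 to 21 and 23 to 26) shared the medium, conditioned by BRL cells and supplemented with leukemia inhibitory factor, the MEK inhibitor PD0325901 and the GSK-3 inhibitor CHIR99021. Each line is 1 clone and gave 1 library of total RNA, so nothing separates a property of clone 22 from a property of its library. The libraries held 10846005 to 16868500 counts (15413673 in clone 22), and 3 counts, the floor of detection used here, were worth 0.173 to 0.284 CPM.

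Mouse embryonic stem cells in culture are known to gain an extra copy of chromosome 8 often, and such cells can outgrow their neighbours. An extra chromosome next to a normal pair gives 1.5 times the gene dose, and transcript levels of most genes are known to follow dose, while genes under feedback or under control of a changing factor can depart from it. Chromosome 8 carries genes for DNA replication (Mcm5, Cdt1, Orc6), chromatin (Ctcf, Smarca5), translation, adhesion (Cdh1, Itgb1) and the pluripotency marker Zfp42, also called Rex1. DNA copy number was not measured in these libraries. In RNA from a whole culture, a larger share of cells with a higher level and more RNA in every cell cannot be told apart.

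The start regions of 5 genes of the stretch are given first, to show the sequence at 3 of the 4 given marker genes (Mmp2 is not shown), at a gene that did not share the shift and at the last gene. Each runs from 250 bases before to 50 bases after the gene's start in RefSeq on GRCm38.p6, read 5′ to 3′ on the gene's own strand, with every CG dinucleotide in capitals. Zfp42, in the first part of the stretch, starts at chr8:43306960-43307259 on the minus strand, with 11 CG. Syce2, at chr8:84871861-84872160 on the plus strand, has 19. Gpt2, a gene with no higher level in clone 22, lies at chr8:85492326-85492625 on the plus strand and also has 19. Ciapin1, at chr8:94838291-94838590 on the minus strand, has 34. Itgb1, the last gene of the stretch, lies at chr8:128685404-128685703 on the plus strand and has 27.
Zfp42: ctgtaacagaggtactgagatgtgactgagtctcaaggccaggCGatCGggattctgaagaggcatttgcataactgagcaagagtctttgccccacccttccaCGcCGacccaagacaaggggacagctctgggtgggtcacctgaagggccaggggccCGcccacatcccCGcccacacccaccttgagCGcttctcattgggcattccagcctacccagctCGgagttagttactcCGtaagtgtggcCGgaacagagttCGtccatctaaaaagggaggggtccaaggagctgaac
Syce2: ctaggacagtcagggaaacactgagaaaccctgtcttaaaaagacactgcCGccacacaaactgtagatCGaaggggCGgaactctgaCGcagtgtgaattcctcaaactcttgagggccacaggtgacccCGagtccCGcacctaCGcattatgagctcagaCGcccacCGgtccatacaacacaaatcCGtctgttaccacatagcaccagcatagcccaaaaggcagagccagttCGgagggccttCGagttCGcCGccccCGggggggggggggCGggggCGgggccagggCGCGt
Gpt2: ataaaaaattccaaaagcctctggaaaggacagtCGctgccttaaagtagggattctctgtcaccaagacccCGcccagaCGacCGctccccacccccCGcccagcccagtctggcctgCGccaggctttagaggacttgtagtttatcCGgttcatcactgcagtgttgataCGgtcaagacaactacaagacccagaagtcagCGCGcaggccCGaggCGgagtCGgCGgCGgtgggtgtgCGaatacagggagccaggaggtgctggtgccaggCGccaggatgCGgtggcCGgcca
Ciapin1: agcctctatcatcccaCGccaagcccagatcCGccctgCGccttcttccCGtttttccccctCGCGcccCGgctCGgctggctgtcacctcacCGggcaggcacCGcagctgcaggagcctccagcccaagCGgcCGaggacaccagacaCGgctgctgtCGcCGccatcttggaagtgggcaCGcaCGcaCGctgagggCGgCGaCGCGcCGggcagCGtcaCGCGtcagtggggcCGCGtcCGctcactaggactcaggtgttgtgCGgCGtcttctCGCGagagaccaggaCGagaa
Itgb1: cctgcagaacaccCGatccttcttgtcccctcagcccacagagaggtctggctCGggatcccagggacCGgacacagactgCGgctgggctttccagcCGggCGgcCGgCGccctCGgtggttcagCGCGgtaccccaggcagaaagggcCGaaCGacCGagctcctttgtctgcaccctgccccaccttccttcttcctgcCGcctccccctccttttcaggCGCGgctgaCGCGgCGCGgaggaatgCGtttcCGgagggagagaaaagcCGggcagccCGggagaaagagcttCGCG

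Over the start regions of 27025 genes in the same RefSeq table, cut the same way, the median was 7 CG and 94.2% held at least 1. A start region was found for 376 of the 545 genes, too few for a comparison of the genes by their promoters, and none was made.

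The 545 genes stood at a median difference of 0.50 between clone 22 and the median of the other 10 clones, on the log2(CPM + 1) scale, which understates differences of low genes. The middle 50% of genes lay between 0.38 and 0.62. In CPM, the median fold of clone 22 over the median of the other 10 was 1.43. The 9788 genes outside chromosome 8 that passed the same filter had a median difference of -0.04 and quartiles of -0.17 and 0.09, so the distance between the 2 medians was 0.54. A factor of 1.5 is 0.58 on the log2 scale.

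Against the spread of the other clones, 420 of the 545 genes were above the highest of the other 10 in clone 22, 125 were within their range and 0 were below the lowest. Over all 10354 genes that passed this filter, the stretch included, 9.18% were above the highest and 9.21% below the lowest. Clone 22 was at or below the median of the other 10 in 20 of the 545 genes, against 55.3% of all such genes. Since the choice of the stretch used this contrast, these shares describe the choice and support nothing further. Each of the other 10 clones was set against the remaining 9, with clone 22 left out. Their medians over the same 545 genes lay between -0.03 and 0.02, with an SD of 0.017 between clones. The share of all counts that fell on genes of the stretch was 6.37% in clone 22, against 4.22% to 4.47% in the other 10.

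**Figure D1:**
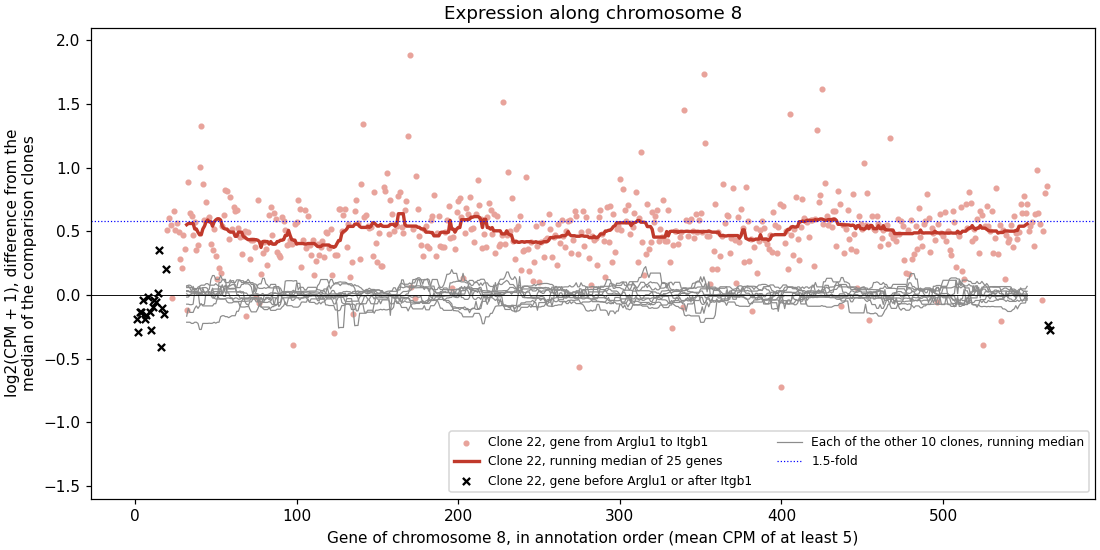
Genes of chromosome 8 averaging at least 5 CPM, in annotation order (x axis), against the difference in log2(CPM + 1) from the median of the comparison clones (y axis). Points are single genes in clone 22, the thick line is the running median of 25 genes in clone 22, the thin lines are the same for each of the other 10 clones, and the dotted line marks 1.5-fold. The thick line stays between 0.37 and 0.64, while the thin lines stay between -0.27 and 0.22.

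The shift was spread over the whole stretch and did not come from a few blocks. With the genes cut in order into 4 blocks of 136 or 137, the median difference was 0.48 from Arglu1 to Aga, 0.49 from Neil3 to Adgrl1, 0.52 from Asf1b to Chtf8 and 0.52 from Utp4 to Itgb1. Between 98 and 110 genes of a block were above the highest of the other 10. The running median of 25 neighbouring genes was lowest at 0.37, from Vdac3 to Hgsnat, and highest at 0.64, from Ing2 to Naf1. The longest unbroken run of genes above the highest of the other 10 held 22 genes, from Pde4c to Gtpbp3. The longest run above their median held 101 genes, from Tma16 to Anapc10. No 2 of the 20 genes at or below the median were neighbours.

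The genes at both ends of the chromosome did not share the shift. Since the ends of the stretch were read from this same contrast, the values beyond them describe that choice. The 19 genes before Arglu1 that averaged at least 5 CPM had a median difference of -0.13. Of these, 18 lay within the range of the other 10, 0 above it and 1 below it. Insr, the insulin receptor gene, stood at 29.5 CPM in clone 22, against a lowest value of 28.7, a median of 33.7 and a highest of 49.2 CPM in the other 10. Efnb2, which encodes a ligand of Eph receptors, stood at 12.4 CPM in clone 22, against 4.45, 10.6 and 17.95 CPM. Clone 22 lay inside the spread of the other clones in both genes. Zfp958, a zinc finger gene, was the 1 gene below the range, at 10.6 CPM in clone 22 against 11.1 to 18.4 CPM. After Itgb1, Ccdc7b and 2610044O15Rik8 had differences of -0.24 and -0.27 and lay within the range. Arglu1 itself, which encodes an arginine- and glutamate-rich nuclear protein, stood at 160.5 CPM in clone 22 against 92.4 to 138 CPM.

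The size of the shift did not follow the level of a gene, while its place beyond the other clones depended on how tightly those clones clustered. With the genes cut into 3 groups by level, the median difference was 0.50 in the lowest group, 0.51 in the middle group and 0.50 in the highest group. In clone 22, 123 of 181, 147 of 182 and 150 of 182 of these genes were above the highest of the other 10. With the genes cut into 3 groups by their spread over the other 10 clones, 178 of 181 were above the highest value in the group of smallest spread, 157 of 182 in the middle group and 85 of 182 in the group of largest spread. At the filter's edge, the lowest member was Klhl36 with a mean of 5.02 CPM (6.91 CPM in clone 22, against a median of 4.37 CPM), and the gene just outside was 1700030J22Rik at 4.98 CPM.

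**Figure D2:**
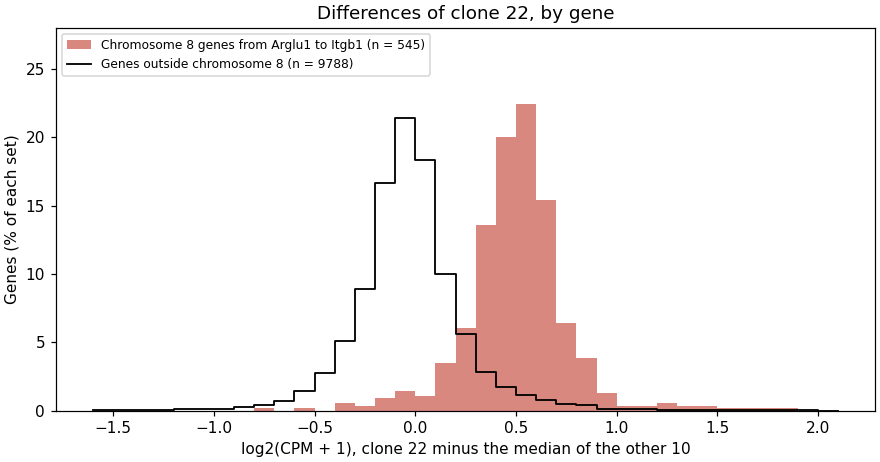
Share of genes in percent (y axis) by the difference in log2(CPM + 1) of clone 22 from the median of the other 10 clones (x axis), in steps of 0.1. The filled bars are the 545 genes from Arglu1 to Itgb1, centred near 0.50, and the line is the 9788 genes outside chromosome 8, centred near -0.04, of which 4 lie beyond the axis.

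Most members lay close to the common shift: 231 had differences of 0.4 to 0.6, a further 107 of 0.2 to 0.4 and 119 of 0.6 to 0.8. Larger differences were few, with 28 genes at 0.8 to 1 and 15 at 1 or more. Mmp2 (ENSMUSG00000031740), the gene of matrix metalloproteinase 2, a secreted protease that cleaves collagen and gelatin, stood at 30.3 CPM in clone 22, against a lowest value of 6.33, a median of 8.39 and a highest of 10.8 CPM in the other 10. That is 3.62 times the median, and the other 10 libraries lay close together. Cpe, which encodes carboxypeptidase E, a prohormone processing enzyme, had the largest difference of all members, 1.89, with 94.98 CPM in clone 22 against 9.72 to 55.0 CPM. Here the other clones alone spread over more than the distance between clone 22 and the highest of them.

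Genes of adhesion and the cytoskeleton were among the other large differences. Cdh3, the gene of P-cadherin, stood at 45.7 CPM in clone 22, against 7.66, 14.2 and 20.9 CPM (lowest, median and highest of the other 10), a fold of 3.22. Palld, which encodes the actin-binding protein palladin, stood at 97.9 CPM against 24.7 to 53.8 CPM. Both genes were beyond every other clone by a wide margin. Gas6, a secreted ligand of the TAM receptor kinases, stood at 18.8 CPM against 4.05 to 9.62 CPM, and the amino acid transporter gene Slc7a6 at 34.1 CPM against 9.37 to 16.8 CPM. Zfp423, a zinc finger transcription factor gene, stood at 26.1 CPM against 0.874 to 21.05 CPM, so the highest and lowest of the other clones differed by far more than clone 22 did from the highest. Ushbp1, Carmil2, Snx25 and Ldhd were also among the 12 largest differences, at 1.52, 1.42, 1.35 and 1.23.

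The genes that had been given as markers of the shift ranged from a difference near the common one to more than 3-fold. Syce2 (ENSMUSG00000003824), which encodes a central element protein of the synaptonemal complex, the structure that joins paired chromosomes in meiosis, stood at 63.3 CPM in clone 22, against 26.5, 28.55 and 33.1 CPM (lowest, median and highest). Ciapin1 (ENSMUSG00000031781), a gene for a protein of cytosolic iron-sulfur cluster assembly, stood at 144.5 CPM against 66.7, 78.6 and 95.6 CPM. Zfp42 (ENSMUSG00000051176) stood at 1435 CPM against 624, 969 and 1203 CPM. Clone 22 was the highest of the 11 libraries in all 3 genes, with folds of 2.22 for Syce2, 1.84 for Ciapin1 and 1.48 for Zfp42. Itgb1, the gene of the integrin beta 1 chain that pairs with many alpha chains to bind matrix, stood at 331 CPM in clone 22 against 168, 182 and 212 CPM, a fold of 1.82, and the gene next after it in the list was within the range of the other clones.

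**Figure D3:**
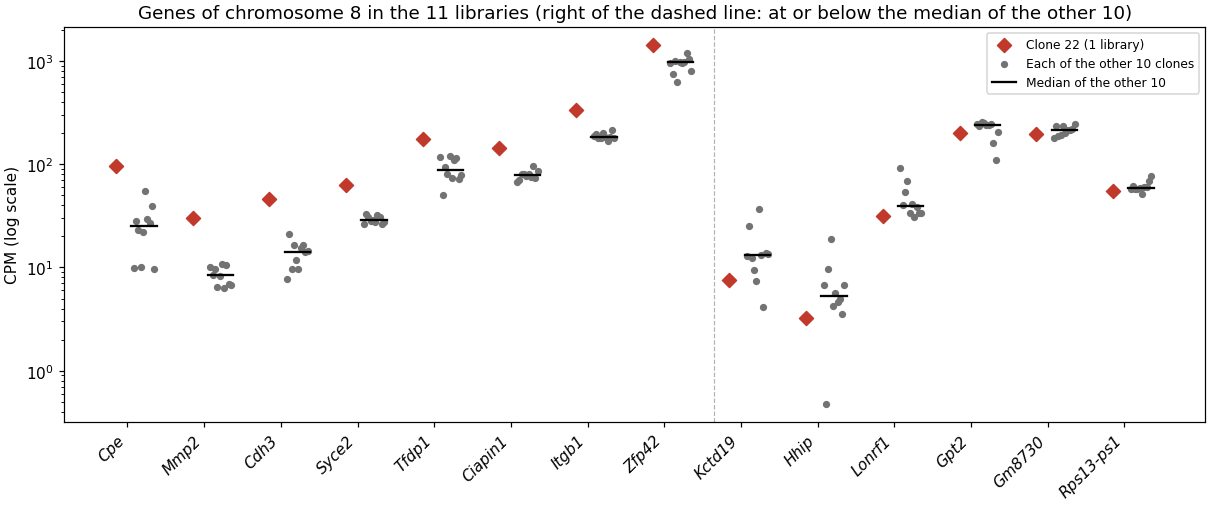
CPM on a log scale (y axis) of 14 genes of the stretch (x axis), with clone 22 as a red diamond, each of the other 10 clones as a grey point and their median as a black line. In the 8 genes left of the dashed line clone 22 is above every other clone, and in the 6 genes right of it clone 22 is at or below the median and inside the spread of the other clones.

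Genes at or below the median of the other 10, called escaping here, were few and lay within the range of the other clones. By spread over the other 10 clones, 16 of the 20 fell in the group of largest spread. A further 4 fell in the middle group and 0 in the group of smallest spread. Whether they departed from the shift or only varied between clones was not tested. Of the 20 at or below the median, 17 are protein-coding genes and 3 are processed pseudogenes in the GENCODE annotation. Kctd19, which encodes a protein with a BTB domain, stood at 7.54 CPM in clone 22, against 4.10, 13.1 and 37.1 CPM (lowest, median and highest of the other 10), a difference of -0.72. Hhip, the gene of a membrane protein that binds and restrains hedgehog ligands, stood at 3.27 CPM against 0.477, 5.31 and 18.7 CPM. The other clones differed from each other many-fold in both genes. Lonrf1, a RING finger gene, stood at 31.9 CPM against 30.8, 39.5 and 90.9 CPM.

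Gpt2, the mitochondrial alanine aminotransferase gene, stood at 199 CPM in clone 22, against 109.7, 238 and 257 CPM (lowest, median and highest of the other 10), a difference of -0.26. Sfrp1, which encodes a secreted protein that binds Wnt ligands, stood at 227 CPM against 167, 229.5 and 310.2 CPM, and Atp11a, a phospholipid flippase gene, at 80.2 CPM against 34.7, 87.0 and 153 CPM. Clone 22 was inside the spread of the other clones in these 3 genes. Nqo1, a quinone reductase gene, and Irs2, an adaptor of insulin signalling, had differences of -0.09 and -0.03. The remaining coding genes at or below the median were Adgra2, Sult5a1, Dbndd1, Il34, Ap3m2, Ido2, Cotl1, Irf2bp2 and Tmem192, with differences from -0.39 to -0.02.

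All 3 processed pseudogenes among the members escaped, as did 17 of the 540 protein-coding members. Above the highest of the other 10 were 0 of the 3 pseudogenes and 418 of the 540 coding members. Gm8730 stood at 197 CPM in clone 22 against 178, 215 and 245 CPM (lowest, median and highest), Rps13-ps1 at 55.5 CPM against 51.8, 59.2 and 76.0 CPM, and Gm6180 at 17.6 CPM against 16.7, 19.6 and 32.2 CPM. Clone 22 was between the lowest and the median of the other clones in each. A processed pseudogene can share reads with its parent gene elsewhere in the genome, and the sources used here do not give how reads with several matches were counted, so these 3 values are uncertain.

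Gene lists are described by the number of members above the highest of the other 10, which over all 545 genes was 77.1%, and no list was tested against that share. In the list of DNA replication and the cell cycle 19 of 22 members were above, 3 were within the range, 0 were at or below the median, and the median difference was 0.53. Mcm5, a subunit of the replicative helicase, stood at 931 CPM in clone 22, against 499.6, 619 and 676 CPM (lowest, median and highest of the other 10). Cdt1, which loads that helicase at origins, stood at 368 CPM against 183, 222.5 and 262 CPM. Tfdp1, the partner of E2F transcription factors, had the largest difference of the list, at 175 CPM against 50.3, 87.0 and 120.3 CPM. Gins3, Anapc10 and Cenpt were the 3 members within the range.

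In the list of translation and ribosome making, 11 of 14 members were above, near the share over all 545 genes, with a median difference of 0.55. Rpl13, a protein of the large ribosomal subunit, stood at 136 CPM in clone 22 against 76.2 to 106 CPM, and Abce1, which recycles ribosomes, at 612 CPM against 338 to 453 CPM. In the list of transcription and chromatin, 16 of 18 were above, with a median of 0.47, and Irf2bp2 was the 1 member at or below the median. Ctcf, the insulator protein gene, had 1 of the smaller differences, 0.20, at 246 CPM in clone 22 against 185.5 to 237 CPM, and was still above every other clone. Sall1, a zinc finger gene, stood at 479 CPM against 147 to 454 CPM, and Klf2, a naive pluripotency factor gene, at 432 CPM against 214 to 430.4 CPM.

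Of the mitochondrial list 7 of 10 members were above the highest of the other 10, with a median of 0.47. Cox4i1, a subunit of cytochrome c oxidase, stood at 427 CPM in clone 22 against 264 to 326 CPM. Slc25a4, the adenine nucleotide translocator gene, was within the range at 158 CPM against 77.7 to 285 CPM.

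The stress response genes of the stretch had the lowest list median, 0.32, and 5 of 14 were above the highest of the other 10; without clone 24 among the comparison clones 8 were. Mt1 and Mt2, the metallothionein genes, stood at 217.5 and 366 CPM in clone 22, against 64.1 to 245 CPM and 109.8 to 536 CPM. Both were within a wide spread of the other clones. Hmox1, heme oxygenase 1, stood at 103 CPM against 52.9 to 95.3 CPM, and Calr, the calcium-binding chaperone of the endoplasmic reticulum, at 647 CPM against 429 to 593 CPM. Dnajb1, a cochaperone of the HSP70 proteins, stood at 82.4 CPM against 62.5 to 75.6 CPM. These 3 genes were above every other clone.

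Of the surface, adhesion and matrix list 4 of 10 were above, with a median of 0.64. Vegfc, a growth factor of lymphatic vessels, stood at 39.01 CPM in clone 22 against 14.3 to 37.2 CPM, and Cdh1, the gene of E-cadherin, was within the range at 975 CPM against 296 to 1010.0 CPM. Of the 2 germ cell genes that averaged at least 5 CPM, Syce2 was above and Tex15 was within.

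**Figure D4:**
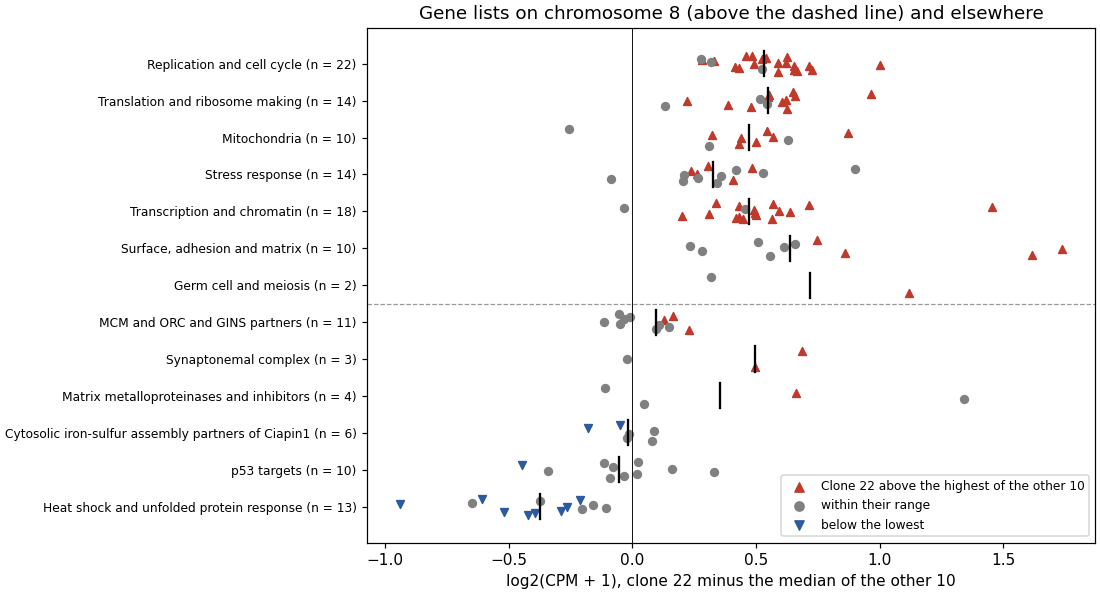
Difference in log2(CPM + 1) of clone 22 from the median of the other 10 clones (x axis) for each gene of the lists (rows), with chromosome 8 lists above the dashed line and lists of genes elsewhere below it. Triangles pointing up are genes above the highest of the other 10, circles are genes within their range, triangles pointing down are genes below the lowest, and the black bar is the list's median. The chromosome 8 lists have medians of 0.32 to 0.72, and the heat shock and unfolded protein response list has a median of -0.38.

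Partners of these genes on other chromosomes differed between lists. Among all 9788 genes outside chromosome 8, 5.4% were above the highest of the other 10 and 9.7% below the lowest. Of 11 subunits of the MCM, ORC and GINS complexes encoded elsewhere, 3 were above the highest of the other 10 (Mcm2, Orc2 and Orc5), 8 were within the range, and the list's median difference was 0.10. Mcm2 stood at 668 CPM in clone 22 against 487 to 654 CPM. Clone 24, set against its own comparison libraries, also had 3 of the 11 above, with a median of 0.12. Of the 6 partners of Ciapin1 in cytosolic iron-sulfur assembly, 4 were within the range and 2 below it, Ciao1 at 58.4 CPM against 63.1 to 70.9 CPM and Mms19 at 178.5 CPM against 178.7 to 326 CPM, and the list's median was -0.02. With DESeq2 size factors, raw library totals or TMM factors from genes outside chromosome 8, only 1 of the 6 was below the range. Of the 6 synaptonemal complex genes listed elsewhere, only 3 averaged at least 5 CPM. These 3 had a median difference of 0.49, and 2 of them were above the highest of the other 10. Syce1, a central element gene like Syce2, stood at 27.95 CPM in clone 22 against 7.07 to 19.8 CPM, and Sycp1, of the transverse filaments, at 18.5 CPM against 9.84 to 15.2 CPM. Sycp3 of the lateral elements was within the range, with a difference of -0.02. Of 9 metalloproteinase and inhibitor genes listed, the 4 that averaged at least 5 CPM had a median of 0.35, with 1 above the range. Mmp14, whose product activates the MMP2 protein, was within the range at 17.02 CPM against 3.26, 6.12 and 18.5 CPM (lowest, median and highest), and Mmp17, a membrane-bound relative, was above it at 28.5 CPM against 9.86 to 26.9 CPM.

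The chaperone and unfolded protein response genes outside chromosome 8 were lower in clone 22. All 13 listed genes that averaged at least 5 CPM were at or below the median of the other 10, as were 58.1% of the genes outside chromosome 8. Of these 13, 8 were below the lowest, as were 9.7% of the genes outside chromosome 8. None was above the highest, and the median difference was -0.38. Summed over all 15 listed genes, the list stood at 9053 CPM in clone 22, against 10130 to 13160 CPM. Most of the sum was 1 gene, Hsp90ab1, at 5739 CPM in clone 22 against 5921 to 8283 CPM. In the other clones, each against its own comparison libraries, the same list had medians of -0.13 to 0.22 and 0 to 2 members below the lowest. With each of the other 10 clones left out in turn, 8 or 9 members were below the lowest and the median lay between -0.28 and -0.40. This list was drawn up with earlier results of these libraries known.

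Atf4, the transcription factor gene of the integrated stress response, had the largest difference of that list, -0.94, with 304 CPM in clone 22, against 399, 584 and 989 CPM (lowest, median and highest of the other 10). Xbp1, a transcription factor gene of the unfolded protein response, stood at 57.7 CPM against 72.2, 88.5 and 104.4 CPM. Both were below every other clone. Hsp90aa1, the inducible cytosolic HSP90, stood at 974 CPM against 1133, 1398 and 2582 CPM. Hspa5, the HSP70 protein of the endoplasmic reticulum known as BiP, stood at 230.2 CPM against 286, 308.5 and 417.5 CPM. Hspa8, the constitutive cytosolic HSP70, stood at 127 CPM against 136, 167 and 266 CPM, and Asns, the asparagine synthetase gene that ATF4 is known to induce, at 994 CPM against 1044 to 1541 CPM. Hsp90ab1 and Dnaja1 were also below the range. Trib3, Chac1 and Ddit3, further genes of the ATF4 response, had differences of -0.65, -0.38 and -0.16 and were within the range, as were Hsph1 and Hspd1.

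**Figure D5:**
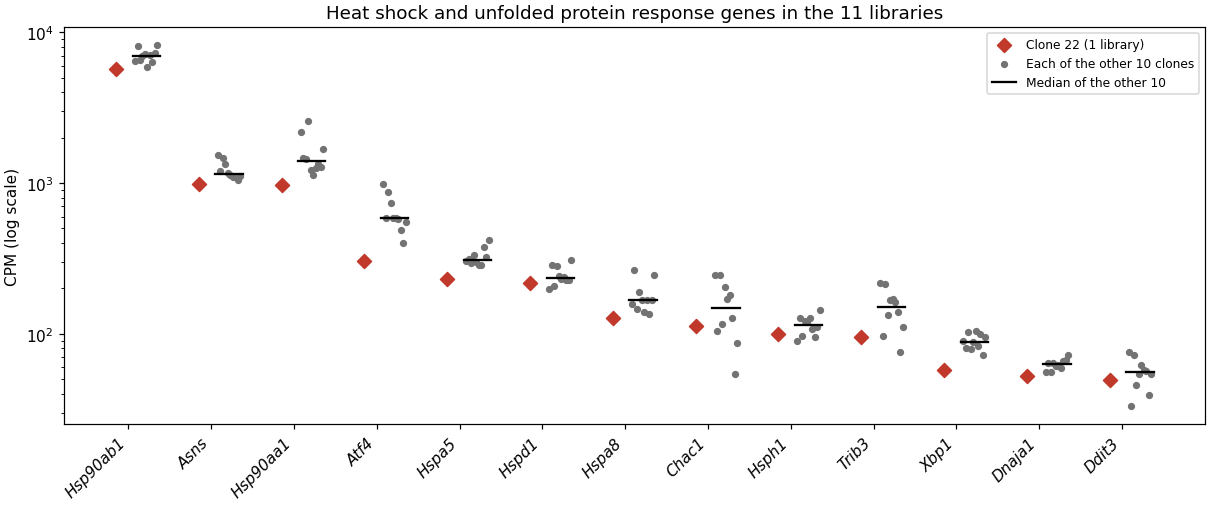
CPM on a log scale (y axis) of the 13 heat shock and unfolded protein response genes outside chromosome 8 (x axis), with clone 22 as a red diamond, each of the other 10 clones as a grey point and their median as a black line. Clone 22 is below all other clones in 8 of the 13 genes.

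Of the p53 target list 0 of 10 members were above the highest of the other 10 and 1 was below the lowest, Sesn2, also a known target of ATF4, at 251 CPM in clone 22 against 256 to 569.8 CPM. The list's median was -0.06. Each against its own comparison libraries, clones 24 and 26 had medians of 0.80 and 0.68 for this list, and clone 18 had -0.50. The remaining clones had medians of -0.10 to 0.37. The range of the other 10 was thus wide, and a place within it says little. Among all genes outside chromosome 8, 5.4% were above the highest and 9.7% below the lowest.

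The cells of clone 22 carried the transcripts of naive embryonic stem cells. The 10 markers of that list summed to 8161 CPM in clone 22, against 7506 to 9589 CPM. That sum includes 2 genes of the stretch, Zfp42 at 1435 CPM (median of the other 10, 969 CPM) and Klf2 at 432 CPM (median 323 CPM). Its place inside the range therefore does not describe the 8 markers that lie elsewhere. The 2 markers that lie on chromosome 8, Zfp42 and Klf2, were above the highest of the other 10. All 8 markers that lie elsewhere were at or below the median, as were 58.1% of the genes outside chromosome 8. Of these markers 6 were within the range, with small differences of -0.15 to -0.07. The other 2 were below the lowest, as were 9.7% of the genes outside chromosome 8. Tfcp2l1, a transcription factor gene of the naive state, stood at 1262 CPM in clone 22 against 1318, 2052 and 2526 CPM (lowest, median and highest). Dppa5a stood at 330.1 CPM against 381, 450.0 and 619 CPM. Markers of other cell types were summed in the same way. Primitive endoderm markers summed to 6.85 CPM in clone 22 against 3.18 to 9.33 CPM, mesoderm markers to 2.01 against 1.59 to 4.56 CPM, and fibroblast markers to 10.4 against 9.52 to 25.8 CPM, with Dcn and Col3a1 at 0 counts in clone 22. The sum of liver markers was 0.817 against 2.41 to 5.64 CPM, with Alb at 0 in all 11 libraries. Trophoblast markers summed to 59.5 against 59.8 to 118.5 CPM and primed epiblast markers to 252 against 150 to 252.2 CPM. Neural markers summed to 121 against 48.6 to 95.6 CPM, and Tubb3, a chromosome 8 gene, made up 89.6 CPM of it in clone 22 against 19.2 to 77.8 CPM. The part of other cell types in the differences above was not tested.

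Outside chromosome 8, genes that stood apart in clone 22 were scarce. With a difference of at least 1 on the log2 scale and a level beyond the range of the other 10, 31 of 9788 genes were higher (0.317%) and 20 lower (0.204%). By the same rule the other clones had 7 to 184 higher and 2 to 277 lower genes, so 5 clones had more higher genes than clone 22 and 5 had fewer. These counts are not like for like. Leaving out chromosome 8 removes the shifted stretch of clone 22, in which 15 genes had differences of 1 or more. Any shifted stretch on another chromosome of another clone stays in its count. The median difference of each of the 19 other chromosomes with at least 25 genes that passed the filter lay between -0.10 and -0.01 in clone 22. The Y chromosome, with fewer such genes, was left out.

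The higher genes with the largest differences included Nxf3, an X-linked member of the RNA export factor family, at 31.9 CPM in clone 22 against 0.636 to 23.8 CPM, and Nefm, the gene of the medium neurofilament chain, at 71.5 CPM against 3.12 to 52.1 CPM. Crmp1, which encodes a protein of axon guidance, stood at 25.2 CPM against 0.945 to 23.7 CPM, Pkd2l1, a cation channel gene, at 40.6 CPM against 1.42 to 37.1 CPM, and Ace, the angiotensin-converting enzyme gene, at 22.5 CPM against 3.92 to 20.95 CPM. In these 5 genes the other clones spread widely and the highest of them came near clone 22 or within a factor of 1.5 of it. Slfn9, of the Schlafen family, and St8sia6, a sialyltransferase gene, were further apart, at 44.9 CPM against 2.46 to 22.5 CPM and at 47.7 CPM against 7.45 to 27.6 CPM. Zfy1, a Y-linked zinc finger gene, stood at 17.8 CPM against 0 to 17.3 CPM.

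Among the lower genes, Fbln5, an elastic fibre protein gene, stood at 2.45 CPM in clone 22 against 3.26 to 15.2 CPM, and Slc16a9, a monocarboxylate transporter gene, at 7.48 CPM against 9.20 to 37.0 CPM. Igsf23, of the immunoglobulin superfamily, stood at 6.16 CPM against a lowest value of 11.2 and a median of 17.6 CPM, Accsl at 12.4 CPM against 13.7 to 71.1 CPM, and Id4, an inhibitor of basic helix-loop-helix factors, at 7.54 CPM against 10.02 to 28.3 CPM. S100a13, Dner and Pdzrn4 completed the 8 largest, with differences of -1.36, -1.36 and -1.48.

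Genes outside chromosome 8 took no part in the choice of the stretch, and for them clone 22 was also tested as 1 library against the other 10. Of the 12479 genes tested, 11810 lay outside chromosome 8. Shares given over all tested genes include the stretch. edgeR's quasi-likelihood test, over the 12479 genes that averaged at least 1 CPM and at a Benjamini-Hochberg adjusted p of 0.05, called 0 genes outside chromosome 8, with 154 higher and 176 lower at an unadjusted p under 0.05. The DESeq2 Wald test called 7 higher and 12 lower there; over all tested genes it called 1.12% higher and 0.0962% lower. The edgeR calls over all genes were 4 (0.0321%), all higher in clone 22 and all in the stretch. These 4 are no test of the stretch, whose choice used this contrast. Without clone 18, 19, 20, 21, 23 or 26 they numbered 0, without 16 or 17 they numbered 1, without 25 they numbered 2 and without 24 they numbered 5.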

How the data were processed

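The deposited table holds raw read counts per gene, whole numbers, for 22369 mouse Ensembl IDs in 11 libraries of total RNA. The submitters' processing notes name TopHat 1.4.0 with Bowtie 0.12.7 and the builds mm9 and hg19. Not given in the sources used here are the counting tool, strand and treatment of reads with several matches. The table had 0 columns without a label.

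Counts were divided by library totals scaled with TMM factors (0.971 to 1.04) to give CPM. The floor of 3 counts covers counting error only. Symbols, chromosomes and gene order were taken from GENCODE vM21 for 20777 IDs, and 1592 without a match held 0.401% of the counts. Since that annotation is on GRCm38, a later build than mm9, its positions were used only to order the genes. Gene types were taken from it as well. Differences are log2(CPM + 1) of clone 22 minus the median of the other 10 clones, with no test. The edgeR test estimated the spread over the other 10 libraries, with a common coefficient of variation of 24.9%. It was tested on simulated data. The tools were R 4.3.3, edgeR 4.0.16, DESeq2 1.42.0, Python 3.11.15, NumPy 2.4.6, pandas 2.3.3 and matplotlib 3.10.9.

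The members and lists were chosen with earlier results of these data known. Named genes are the 4 given markers, both ends of the stretch, the 12 largest and 12 smallest differences among members, the 8 largest in each direction outside chromosome 8 beyond the range of the other 10, and in each list up to 4 genes with the highest mean and those beyond the range with a difference of at least 0.8. Further genes were named after their values were seen, such as Ctcf, Vegfc and the other members at or below the median. Some genes that meet the rule are not reported here. Alternatives were other scalings, level filters, pseudocounts, the mean in place of the median, each clone left out in turn, DESeq2, and adjustment over all pairs of gene and clone. The use of raw library totals in the edgeR test was chosen after seeing the data.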

Additional observations from a re-analysis of the deposited data

How the results depend on the processing

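The median difference of the 545 genes, 0.50, was 0.55 with raw library totals, 0.52 with TMM factors from genes outside chromosome 8, 0.43 with no level filter (884 genes) and 0.46 with a pseudocount of 5. With a clone left out it lay between 0.50 and 0.51. The number above the highest of the other 10 was 335 (of 413 genes averaging at least 20 CPM) to 499 (of 884) over the filters, and 420 to 434 with a clone left out. The 20 genes at or below the median were 34 with a filter of 1 CPM, 11 with 20 CPM and 125 with none, and 17 to 23 with a clone left out. The 31 higher genes outside chromosome 8 were 75 with a filter of 1 CPM, 5 with 20 CPM, 88 with none and 15 with a pseudocount of 5, and 29 to 40 with a clone left out. The 20 lower genes were 5 with a filter of 20 CPM and 6 with a pseudocount of 5, and 18 to 34 with a clone left out, 34 being the value without clone 24. The 4 edgeR calls among the 545 genes were 22 with raw library totals, 1 with no filter, 18 adjusted over all 137269 pairs of gene and clone, and 131 by DESeq2, and 0 to 5 with a clone left out; these counts restate the choice of the stretch. The count outside chromosome 8 was 19 by DESeq2, and 0 with each clone left out. Of 1472 values of 92 named genes under other settings, 4 moved, all with a pseudocount of 5 (Mmp2 1.401, Mrpl34 0.79, Pdzrn4 -0.67 and Igsf23 -1.02), and 0 reversed. The cause of these shifts was not tested. No paired analysis was possible because each clone number occurs once. With 1 library of clone 22, the spread between cultures of that clone is unknown.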

Other observations

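Of the 31 higher genes outside chromosome 8, 3 more are given here, chosen after their values were seen. Nefl, the gene of the light neurofilament chain and a neighbour of Nefm on chromosome 14, stood at 86.0 CPM in clone 22, against a lowest value of 16.01, a median of 34.5 and a highest of 82.6 CPM in the other 10. Nefh, the gene of the heavy chain on chromosome 11, stood at 21.4 CPM against 5.11, 9.89 and 18.03 CPM. Dpysl5, of the same family as Crmp1, stood at 12.1 CPM against 1.39, 4.94 and 11.4 CPM. Clone 22 was the highest of the 11 libraries in each, by a small margin over 1 other clone: clone 23 for Nefl and clone 24 for Nefh and Dpysl5. Of the neural marker list, Nes and Pax6 lie outside chromosome 8 and were within the range of the other 10, Nes at 30.03 CPM in clone 22 against 11.0 to 75.9 CPM and Pax6 at 1.82 CPM against 0.520 to 10.2 CPM.

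Among the 20 lower genes, and likewise chosen after their values were seen, were the growth factor receptor gene Egfr, at 2.199 CPM in clone 22 against 2.87, 6.11 and 10.6 CPM (lowest, median and highest of the other 10), the immediate early gene Fos, at 3.46 CPM against 5.47, 8.44 and 18.6 CPM, and the neutral amino acid transporter gene Slc1a4, at 82.2 CPM against 93.1, 174 and 225 CPM. Clone 22 was the lowest of the 11 libraries in all 3 genes.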
